A study of Mus musculus with 28 samples.

Results

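Primordial germ cells (PGC) of the fetal ovary, from which eggs form, were compared at 17.5 and 13.5 days post coitum (E17.5 and E13.5). The comparison rests on the 4 arrays that the labels give as female PGC of these ages, 2 per age, out of 28 one-colour mouse expression arrays in 14 groups of 2. Both ages carry the same strain label, BDF1 x TgN(deGFP)18Imeg, and so do the testicular PGC arrays of both ages, 2 each, which served to ask whether an ovarian change differed from the testicular one. The labels state neither the promoter behind that transgene, nor how the cells were sorted, nor whether embryos were pooled. Nor do they say that both arrays of a group hold different embryos. The p-values therefore reflect only how far the 2 arrays of a group spread, which could be technical. That spread was estimated over all 14 groups of the series, not over the 4 ovarian arrays alone.

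In the mouse fetal ovary, germ cells stop dividing by mitosis and enter meiosis under retinoic acid and bone morphogenetic protein (BMP) signals. Their chromosomes then condense on a cohesin axis, are cut and repaired, pair along the synaptonemal complex, and finally arrest in late prophase as the cell becomes an oocyte. Oocyte transcription factors then switch on the genes of the egg coat and of the early embryo, in step with the formation of follicles around birth. Germ cells of the fetal testis do not enter meiosis at these ages and rest in the cell cycle instead.

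Levels are log2 processed signals minus each array's 75th percentile, taken over the 7227 probes well above background in every array of the series, so a level of 0 is that percentile. Array 1 of each PGC group was scanned on 1 day and array 2 on another. The ages were compared within scan days (pair 1 and pair 2). Array 2 of both ovarian ages lay on the same slide, but array 1 of each age lay on a different slide. In pair 1, age and slide therefore cannot be told apart. Between 33.6% and 46.7% of probes were well above background on the 4 ovarian arrays, and their number limits the precision. Eif2s3y, a Y-linked translation factor gene, was not well above background on any of them (-10.25 to -7.13) and lay between -3.00 and -1.78 on the 4 testicular arrays. All 8 germ cell markers on the array, Ddx4 and Dazl among them, were well above background on all 4 ovarian arrays.

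Between E13.5 and E17.5, more than 1 in 2 of the tested genes in the lists for meiotic entry, pluripotency, early PGC identity and DNA replication fell in the ovarian cells, and more than 1 in 2 of those for oocyte transcription factors and the egg coat rose, with the limits given at each list. Of 14338 genes tested, 6617 were called changed at a limma adjusted p under 0.05, which is 46.2% of those tested. The genes higher at E17.5 numbered 3700 (25.8%) and the lower ones 2917 (20.3%). Of all tested genes, called or not, 84.4% ran the same way in both pairs and in 70.8% the arrays of the ages did not overlap; among the called genes, where the call itself nearly fixes this, the numbers were 6613 and 6433. At least 2-fold changes were called for 2605 higher and 2060 lower genes, and at least 16-fold ones for 235 and 117. The split depended on the scaling: a percentile over all probes gave 2940 higher and 3422 lower, quantile normalization 2566 and 2824, and the authors' deposited log2 table, centred on each array's median, 632 and 1192. The median change of all tested genes was 0.11 (-0.01 in pair 1, 0.24 in pair 2) and moved to -0.05, -0.0024 and -0.38 under those 3 scalings. Leaving out E17.5 array 2 gave 2295 higher and 2501 lower genes, and leaving out E13.5 array 2 gave 2327 and 2156. In such bulk samples, fewer cells of a type and less RNA per cell cannot be told apart.

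Stra8 and Rec8 led the falls among genes that open meiosis, a list that held rises too. Of 18 listed genes of meiotic entry and its signals, 14 were on the array and 11 were tested; 6 fell and 2 rose, with a median change of -3.29 (-2.44 with dim members at their bounds, -2.55 and -3.52 in the 2 pairs). Without E13.5 array 1 the median was -1.91 over 13 genes, 6 of them lower, and among genes above background on all compared arrays it was -0.17, with 3 lower and 2 higher of 8. Under normexp, another background correction, 5 of 11 fell. Stra8, the retinoic acid target needed for the premeiotic chromosome cycle, lay at 3.34 and 2.87 on the E13.5 arrays and at -4.73 and -4.60 at E17.5. It fell by 7.77 ± 1.00 on the log2 scale (SE, limma adjusted p = 1.76e-05). Rec8, the meiosis-specific cohesin subunit that retinoic acid also induces, went from 0.25 and -0.38 to -6.47 and -6.99, where 1 of 2 arrays was well above background. Its change was -6.66 ± 0.44 (adjusted p = 2.17e-08). The E17.5 arrays of both genes lay far below both E13.5 arrays.

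Transcription factors that act in the BMP response of germ cells fell with them. Gata2, a zinc-finger factor, lay at -0.85 and -0.58 and then at -4.98 and -4.11, a change of -3.83 ± 0.51 (adjusted p = 2.43e-05). The homeobox gene Msx1 went from -1.32 and -1.71 to -4.38 and -5.23, and its relative Msx2 was at least 15.4-fold lower at E17.5 (adjusted p = 2.46e-06). A bound of this kind sets the bright age against the lowest signal that counts as well above background, because no E17.5 array measured the gene. Here and below, a gene given by a bound entered the test only through its bright age. The opposite change could scarcely be called for it. Dmrt1, which promotes Stra8 expression in the fetal ovary, was at least 5.43-fold lower (adjusted p = 3.82e-05). The inhibitors of DNA binding that BMP signals induce went the other way. Id1 lay at 0.54 and 0.51 at E13.5 and at 3.44 and 3.36 at E17.5, a rise of 2.88 ± 0.64 (adjusted p = 0.0018). Id2 rose by 1.57 ± 0.46 (adjusted p = 0.0115), but its call was lost without either E13.5 array or without E17.5 array 1 (1.25 to 1.90). Id3 went from 1.28 and 0.89 to 2.08 and 1.45 and did not pass the test (adjusted p = 0.208).

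**Figure D1:**
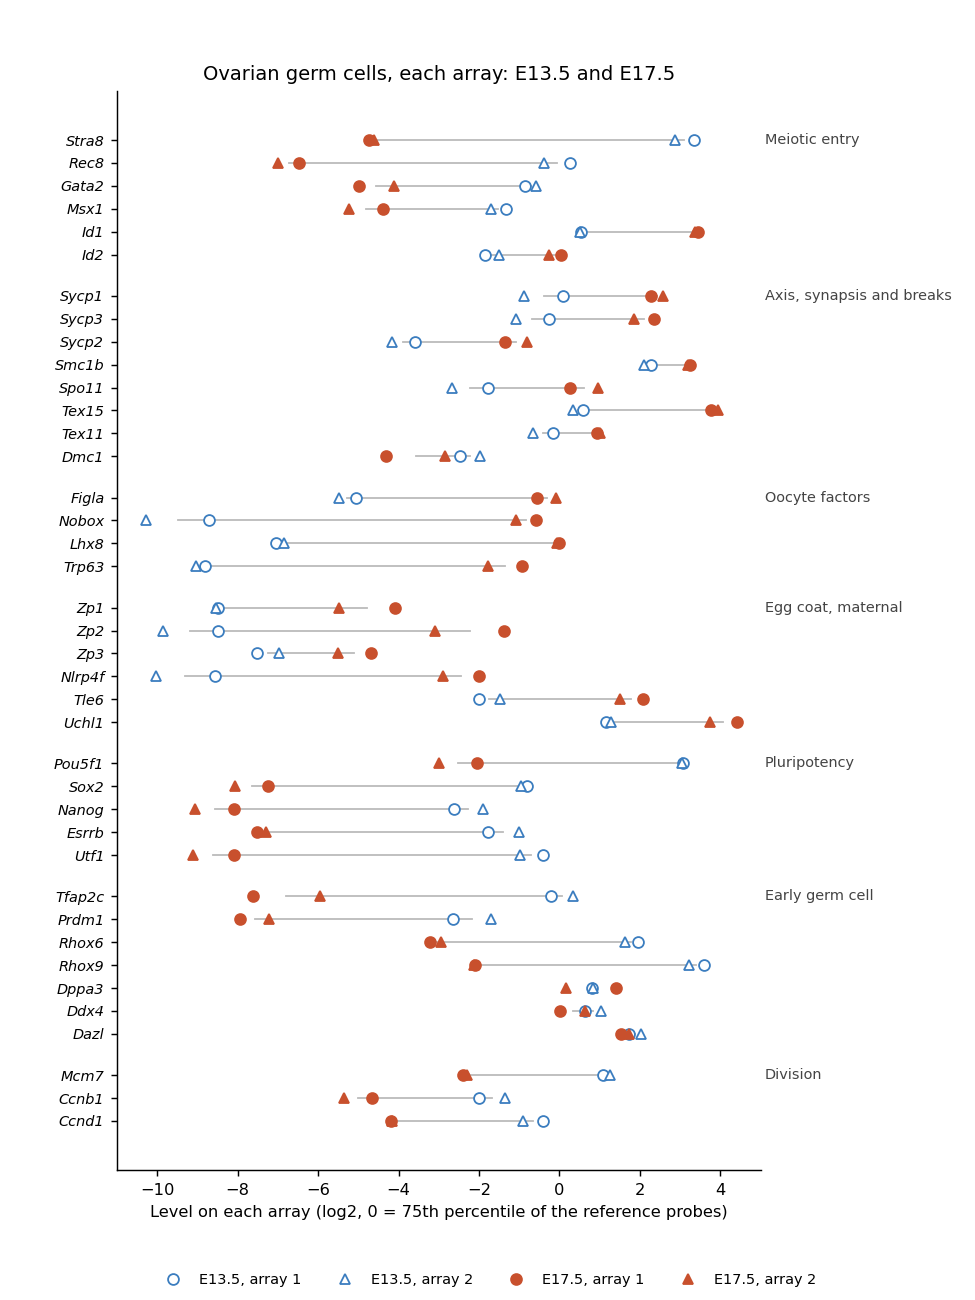
Level of 39 genes on each of the 4 ovarian arrays (log2, 0 is the 75th percentile of the reference probes), with open blue symbols for E13.5, filled red for E17.5, circles for array 1, triangles for array 2 and a grey line between the means of each age. Stra8, Rec8 and the pluripotency genes lie to the right at E13.5, the oocyte factors and egg coat genes at E17.5, and Dppa3, Ddx4 and Dazl show little separation.

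Among genes of the synaptonemal complex and chromosome axis, several that build the complex rose while Rec8, counted here too, fell. All 12 listed genes on the array were tested (20 had been listed); 5 rose and 2 fell, with a median change of 0.75. Sycp1, the transverse filament that joins paired chromosomes, lay at 0.09 and -0.88 at E13.5 and at 2.29 and 2.57 at E17.5. The axis protein gene Sycp3 went from -0.26 and -1.09 to 2.34 and 1.85. Sycp1 and Sycp3 rose by 2.82 ± 0.57 (adjusted p = 0.000855) and 2.77 ± 0.41 (adjusted p = 6.02e-05), with no overlap between ages. The central element gene Six6os1, named 4930447C04Rik in the table, rose by 2.46 ± 0.41 and was called. Sycp2, the partner of Sycp3 on the axis, rose by 2.80 ± 0.87 and Terb1, which ties telomeres to the nuclear envelope, by 3.15 ± 1.07. Neither of these 2 calls held without E17.5 array 2 or without either E13.5 array (2.02 to 3.58 for Sycp2, 2.51 to 3.8 for Terb1). Sun1, the envelope protein that links telomeres to the cytoskeleton, fell by 0.50 ± 0.16 (adjusted p = 0.0185), a call lost without E17.5 array 1 or either E13.5 array (-0.66 to -0.34). The cohesin gene Smc1b (2.27 and 2.11, then 3.26 and 3.20, adjusted p = 0.172) and the axis genes Stag3 (-0.26 ± 0.40) and Hormad1 (0.22 ± 0.61) were not called.

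Several of these genes carry CACGTG, an E-box known as a site of MAX-type factors, just before their start. In the 250 bases before the most upstream start in RefSeq (GRCm38.p6), searched on both strands, it was present in 6 of 12 genes of the synaptonemal complex list (Sycp1, Sycp3, Tex12, 4930447C04Rik, Hormad1 and Stag3), of which 3 rose and 0 fell. The list of germ cell RNA binding and transposon defence had it in 6 of 14 genes with a promoter in the table, of which 4 rose and 0 fell. Among all named genes tested it was present in 8.72% of 6252 promoters (9.62% of those called higher and 7.59% of those called lower), and in 6.04% of all 27025 genes of the promoter table. Matches to CACGTG are also matches to the looser CANNTG, which stood in 56.0% of tested promoters, and they are descriptions of letters, not of binding. The stretches of 4 genes that rose are shown 5′ to 3′ up to the base before the start, with CACGTG in capitals, to show where it stands. Sycp1 lies at chr3:102936101-102936210 (minus strand), Sycp3 at chr10:88459477-88459586 (plus), Piwil1, whose protein binds piRNA, at chr5:128736056-128736245 (plus) and Mael, a germ granule gene of transposon silencing, at chr1:166238745-166238984 (minus).
Sycp1: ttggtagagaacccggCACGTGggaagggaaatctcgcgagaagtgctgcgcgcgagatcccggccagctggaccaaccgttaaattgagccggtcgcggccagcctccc
Sycp3: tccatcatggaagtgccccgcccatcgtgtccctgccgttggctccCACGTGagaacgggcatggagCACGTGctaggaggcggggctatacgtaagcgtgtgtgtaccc
Piwil1: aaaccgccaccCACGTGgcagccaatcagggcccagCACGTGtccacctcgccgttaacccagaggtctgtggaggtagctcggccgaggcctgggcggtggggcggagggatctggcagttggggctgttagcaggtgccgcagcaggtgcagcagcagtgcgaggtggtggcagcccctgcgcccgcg
Mael: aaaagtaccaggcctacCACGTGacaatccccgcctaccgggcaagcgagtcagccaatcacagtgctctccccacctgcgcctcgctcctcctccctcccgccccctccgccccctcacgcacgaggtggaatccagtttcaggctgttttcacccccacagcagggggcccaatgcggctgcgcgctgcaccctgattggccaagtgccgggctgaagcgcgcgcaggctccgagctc

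Of the promoters not sharing that motif, Rec8, which fell, held a CACCTG at -45 (chr14:55618056-55618165, plus strand, shown with the motif in capitals). CACCTG was present in 14.9% of tested promoters (16% of those called lower and 17.8% of those called higher).
Rec8: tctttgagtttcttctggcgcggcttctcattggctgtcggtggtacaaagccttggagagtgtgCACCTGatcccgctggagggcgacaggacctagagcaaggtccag

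In the recombination list, 12 of 14 genes on the array were tested (30 had been listed); 6 rose and 2 fell, with a median of 0.82. Spo11, the enzyme that makes the programmed breaks of meiosis, lay at -1.79 and -2.66 at E13.5 and at 0.27 and 0.95 at E17.5, a rise of 2.84 ± 0.39 (adjusted p = 2.98e-05). Tex15, a germ cell factor needed for break repair, rose by 3.40 ± 0.32, from 0.60 and 0.33 to 3.78 and 3.95 (adjusted p = 7.67e-07). Genes that act late, at crossovers, were higher too. Mlh3, a crossover endonuclease subunit, rose by 1.90 ± 0.32 (adjusted p = 0.000197). Its fellow mismatch-repair homologue Msh4, which stabilises recombination intermediates, rose by 2.72 ± 0.80, a call lost without E17.5 array 2 or either E13.5 array (2.17 to 3.27). Tex11, an X-linked crossover gene, lay at -0.16 and -0.66 and then at 0.93 and 1.00. It rose by 1.38 ± 0.38 (adjusted p = 0.0081), and without E13.5 array 2 the call was lost (1.05 to 1.70 over the 4 omissions).

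Genes of strand exchange changed in both directions. Dmc1, the meiotic recombinase, lay at -2.47 and -1.98 at E13.5 and at -4.31 and -2.84 at E17.5 and fell by 1.35 ± 0.37 (adjusted p = 0.00803). That call was lost without E17.5 array 1 or E13.5 array 1 (-1.88 to -0.83). Quantile normalization, normexp, the deposited table and slide as a fixed block also ended the Dmc1 call. Brca2, which loads recombinases onto DNA, rose by 0.94 ± 0.28 (adjusted p = 0.0132).

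Oocyte transcription factors gave the highest median of the 16 gene lists. Of 17 listed, 7 were on the array and 6 were tested; 5 rose and 0 fell, with a median change of 5.93 (5.43 with dim members at their bounds, 5.76 and 6.10 in the pairs). Figla, the helix-loop-helix factor that starts egg coat transcription and follicle formation, lay at -5.05 and -5.49 at E13.5 and at -0.55 and -0.08 at E17.5, a rise of 4.96 ± 1.02 (adjusted p = 0.001). Nobox, an oocyte homeobox gene, was not well above background at E13.5 (-8.70 and -10.27) and lay at -0.57 and -1.08 at E17.5. It was at least 86.3-fold higher (adjusted p = 6.64e-07). Lhx8, a LIM homeobox gene of oocyte differentiation, rose from -7.04 and -6.85, with 1 of 2 arrays well above background, to -0.02 and -0.06, by 6.91 ± 1.11 (adjusted p = 0.000129). Trp63, whose product guards oocytes against DNA damage, was at least 59.9-fold higher (adjusted p = 3.14e-07; -8.81 and -9.03, then -0.92 and -1.78). In all 4 genes both E17.5 arrays stood several log2 units above both E13.5 arrays. Nobox, Lhx8 and Trp63 entered the test only through their E17.5 arrays, so a fall could scarcely be called for them. Among genes of the list above background on all compared arrays, 2 of 3 rose, with a median of 2.63. Stat3, a signalling factor with a later role in oocytes, rose by 2.63 ± 0.29 (adjusted p = 4.56e-06). Sohlh2, an early factor of oocyte growth, lay at -0.56 and -0.30, then -1.55 and -1.36, and was not called (adjusted p = 0.258).

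The promoters of Nobox and of the egg coat gene Zp3 are shown as examples, not as typical of their lists. Nobox held the E-box CACCTG at -137 and -50 (chr6:43309555-43309704, minus strand), and Zp3 held CACGTG at -181 (chr5:135979905-135980104, plus strand). Each is shown up to the base before its start with that motif, or its reverse complement, in capitals. Of 10 egg coat and maternal-effect promoters that could be searched, 5 held CACCTG, of which 4 rose and 1, Khdc3, fell. That motif was present in 14.9% of tested promoters (17.8% of those called higher and 16% of those called lower). CACGTG was present in 2 of the 10 egg coat and maternal-effect promoters and in 0 of 5 promoters of oocyte transcription factors.
Nobox: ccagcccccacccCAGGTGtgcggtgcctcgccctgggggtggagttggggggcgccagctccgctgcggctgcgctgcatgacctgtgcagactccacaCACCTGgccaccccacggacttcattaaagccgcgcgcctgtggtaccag
Zp3: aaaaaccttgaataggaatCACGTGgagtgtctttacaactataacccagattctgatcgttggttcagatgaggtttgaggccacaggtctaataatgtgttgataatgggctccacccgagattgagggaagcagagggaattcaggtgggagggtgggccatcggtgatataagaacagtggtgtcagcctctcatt

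Most tested egg coat and maternal-effect genes rose as well. Of 30 listed, 24 were on the array and 15 were tested; 11 rose and 1 fell, with a median change of 2.86 (2.47 at bounds). Under normexp or with a common floor for dim values 6 rose. Among genes of the list above background on all compared arrays, 3 of 6 rose, with a median of 1.00. Without the filter on dim probes 9 of 24 rose. Zp3 and the genes given as at least so many fold higher entered the test only through their E17.5 arrays. A fall could scarcely be called for them. Zp2, a glycoprotein of the zona pellucida that surrounds the egg, was not measured above background at E13.5 (-8.49 and -9.86) and lay at -1.38 and -3.08 at E17.5, at least 32.5-fold higher (adjusted p = 1.8e-05). Zp1, which cross-links the coat, was at least 5.52-fold higher (adjusted p = 0.00114). The third coat gene, Zp3, went from -7.52 and -6.96 to -4.68 and -5.51, a rise of 2.14 ± 0.65 (adjusted p = 0.0137). Its call was lost without array 1 of either age (1.69 to 2.59 over the 4 omissions) and under 7 other alternatives, quantile normalization among them. Listed genes linked to the subcortical complex of the early embryo differed among themselves. Nlrp4f was at least 28-fold higher, Padi6 at least 8.18-fold and Zbed3 by 5.09 ± 0.46 on the log2 scale. Tle6, of the same complex, lay between -2.0 and -1.48 at E13.5 and between 1.5 and 2.07 at E17.5, a rise of 3.52 ± 0.28 (adjusted p = 1.75e-07). Khdc3, another member, went the other way and was at least 1.49-fold lower (adjusted p = 0.0175), but its fitted change turned to 0.13 under normexp and lost the call without E17.5 array 1 or either E13.5 array (-1.87 to -1.42). Ooep, a further member of the complex, lay at -1.80 and -1.68, then -0.77 and -2.13, and was not called (adjusted p = 0.443). Uchl1, an abundant oocyte ubiquitin hydrolase, rose from 1.15 and 1.29 to 4.41 and 3.75, by 2.86 ± 0.24 (adjusted p = 2.43e-07).

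Signals between the oocyte and its neighbours changed in both directions. Of 18 listed, 7 were tested; 4 rose and 2 fell, with a median of 1.03. Kit, the receptor through which the ovary supports germ cell survival, lay at -1.90 and -1.70 at E13.5 and at -0.28 and -0.48 at E17.5, a rise of 1.42 ± 0.28 (adjusted p = 0.000742). Gdf9, the growth factor by which oocytes direct follicle cells, was at least 5.98-fold higher (adjusted p = 0.000615), a call lost under normexp and a common floor. The Notch ligand gene Jag2 rose by 2.21 ± 0.82, a call lost in 3 of the 4 omissions (1.37 to 3.05 over the 4; it held without E13.5 array 2). Pdgfa, a growth factor gene, fell by 1.63 ± 0.26 (adjusted p = 0.00013), and Fgf8 fell by 2.17 ± 0.52 (adjusted p = 0.0033), not without E17.5 array 1 (-2.64 to -1.70 over the 4 omissions).

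**Figure D2:**
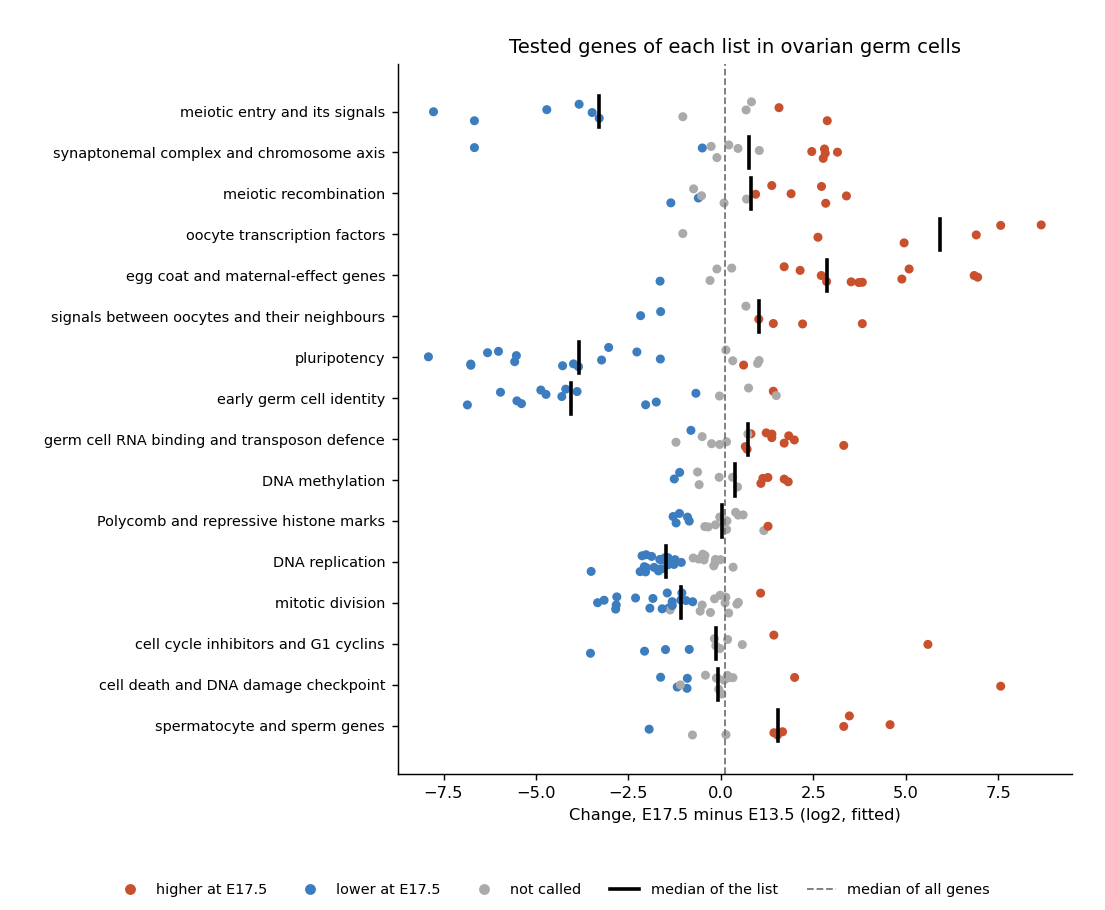
Fitted change in ovarian germ cells, E17.5 minus E13.5 (log2), of each tested gene in 16 lists, with red for genes called higher, blue for lower, grey for genes not called, a black bar for the list's median and a dashed line for the median of all tested genes (0.11). Oocyte transcription factors have the highest median (5.93) and early germ cell identity the lowest (-4.04); genes unmeasured at one age are drawn at their fitted value.

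The genes of pluripotency, which PGC share with stem cells, mostly fell. Of 27 listed genes, 19 were tested; 14 fell and 1 rose, with a median change of -3.85 (-2.84 at bounds, -3.80 and -4.03 in the pairs). Pou5f1, the core factor, lay at 3.06 and 3.04 at E13.5 and at -2.05 and -3.00 at E17.5, a change of -5.57 ± 0.54 (adjusted p = 1.11e-06). It was still well above background at E17.5 on both arrays, which Sox2 and Nanog were not. Sox2 (-0.82 and -0.97, then -7.24 and -8.07) was at least 46.8-fold lower (adjusted p = 0.000247) and Nanog (-2.62 and -1.91, then -8.08 and -9.07) at least 18.1-fold (adjusted p = 8.5e-08). Utf1, a chromatin factor of stem cells, was at least 53.6-fold lower. Esrrb, an orphan nuclear receptor of the naive state, fell by 6.01 ± 0.26 and Tdh, a threonine-degrading enzyme typical of mouse stem cells, fell by 6.76 ± 0.26 (adjusted p = 7.21e-11). Some members did not follow. Zfp42, also known as Rex1, lay at -4.72 and -4.24, then -4.65 and -4.04 (adjusted p = 0.788). Lin28b, which blocks let-7 processing, had a change of 0.32 ± 0.20 (adjusted p = 0.194). The single gene called higher, Trim71, rose by 0.62 ± 0.23 (adjusted p = 0.0372), a call lost without E17.5 array 1 or either E13.5 array (0.36 to 0.87) and under 10 other alternatives. If the test was restricted to genes well above background on all 4 arrays, 3 fell and 1 rose, because that filter removes genes that became unmeasurable.

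Early germ cell identity genes had a median change of -4.04 (-4.17 and -3.71 in the pairs), which was -2.10 over 19 genes without E13.5 array 1. Of 19 on the array, 16 were tested; 12 fell (10 or 11 with any one array left out) and 1, Kit, rose. Tfap2c, a factor that maintains PGC, went from -0.20 and 0.34 to -7.63 and -5.94, 1 of 2 arrays well above background, a change of -6.85 ± 0.47 (adjusted p = 2.88e-08). Its fellow specification genes Prdm1 (at least 19-fold, adjusted p = 2.34e-07) and Prdm14 (at least 18.2-fold, adjusted p = 4.99e-07) were lower as well. X-linked reproductive homeobox genes fell together. Rhox9 lay at 3.60 and 3.21 and then at -2.09 and -2.13, a change of -5.51 ± 0.21 (adjusted p = 7.21e-11). Rhox6 went from 1.94 and 1.64 to -3.21 and -2.95 (-4.87 ± 0.24, adjusted p = 1.6e-09) and Rhox5 from 1.77 and 1.86 to -2.54 and -2.43. Dnd1, an RNA-binding protein that protects germ cells, fell by 3.89 ± 0.32, and Nanos3, a translational repressor, fell by 1.75 ± 0.37. Dppa3, a factor of PGC that is later stored in the egg, showed no separation of the ages: 0.81 and 0.84 at E13.5, 1.41 and 0.16 at E17.5 (-0.04 ± 0.33, adjusted p = 0.938).

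Of 28 listed genes of germ cell RNA handling and transposon defence, 17 were tested; 10 rose and 1 fell, with a median change of 0.73. Piwil1, which acts with piRNA mainly in the adult testis, lay at -5.54 and -5.68 and then at -2.42 and -2.14, a rise of 3.32 ± 0.48 (adjusted p = 5.05e-05). Piwil2, its fetal relative, rose by 1.84 ± 0.22, from 1.38 and 1.37 to 3.33 and 3.09 (adjusted p = 7.83e-06). Mov10l1, a helicase of piRNA production, rose by 1.99 ± 0.59, not without E17.5 array 1 or E13.5 array 2 (fits of 1.4 to 2.57). Mael rose by 1.38 ± 0.41 (adjusted p = 0.0122), held only without E13.5 array 1 among the omissions (1.20 to 1.56). The 2 general germ cell genes differed from these. Ddx4, an RNA helicase, lay at 0.63 and 1.04, then 0.02 and 0.64 (adjusted p = 0.192), and Dazl, a translational regulator, at 1.73 and 2.03, then 1.54 and 1.72 (adjusted p = 0.788). The count of risen genes fell from 10 to 3 without E17.5 array 1, to 6 without E17.5 array 2, to 2 without E13.5 array 2, to 1 under the deposited table and to 4 without the filter on dim probes.

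Enzymes and readers of DNA methylation did not move as one. Of 12 tested, 5 rose and 2 fell, with a median of 0.38. Dnmt1, the maintenance methyltransferase, lay at -0.27 and -0.12 and then at -1.47 and -1.15 and fell by 1.11 ± 0.37 (adjusted p = 0.0216), while its recruiter Uhrf1 rose by 1.08 ± 0.29 (adjusted p = 0.00697). The call on Dnmt1 was lost without E17.5 array 2 or E13.5 array 1 (-1.43 to -0.80) and without the replicate block. Among the de novo enzymes, Dnmt3a rose by 1.27 ± 0.35 (-3.37 and -3.59, then -2.47 and -1.95; adjusted p = 0.0071), a call lost without array 2 of either age (0.91 to 1.64). Dnmt3b rose by 1.14 ± 0.28 (adjusted p = 0.00374), not without E13.5 array 1 (0.96 to 1.31). Their cofactor Dnmt3l was not well above background on either E17.5 array (-8.00 and -7.38) and was not tested. The methyl-binding genes Mbd2 and Mbd1 rose by 1.82 ± 0.22 and 1.71 ± 0.25. Under the deposited table the median was -0.11, and limma called 0 of the 12 genes (1 at an unadjusted p under 0.05).

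Polycomb and repressive histone genes gave 5 lower and 1 higher call among 18 tested, beside 20.3% lower and 25.8% higher of all tested genes. The list's median of 0.03 turned negative under the percentile over all probes (-0.13), quantile normalization (-0.08) and the deposited table (-0.46). Without E13.5 array 1, 2 fell, without E17.5 array 1 or E13.5 array 2, 3 fell, and under the deposited table limma called 0 (3 at an unadjusted p under 0.05). Ezh2, the methyltransferase of Polycomb complex 2, fell by 1.29 ± 0.27 (-0.27 and -0.17, then -1.58 and -1.45; adjusted p = 0.00117). Prmt5, an arginine methyltransferase of PGC, fell by 1.12 ± 0.30, not without E17.5 array 2 or E13.5 array 1 (-1.41 to -0.82). Prmt1 fell by 0.85 ± 0.21 (adjusted p = 0.00333). Pcgf6, a subunit of a variant complex that silences germ cell genes, was the one that rose, by 1.28 ± 0.31 (adjusted p = 0.00346).

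Of 30 tested DNA replication genes, 20 fell (10 under the deposited table) and 10 were not called, with a median change of -1.47 (-1.45 and -1.44 in the pairs), and 17 to 19 fell with any one array left out. Mcm7, a subunit of the replicative helicase, lay at 1.09 and 1.25 at E13.5 and at -2.39 and -2.29 at E17.5, a change of -3.51 ± 0.24 (adjusted p = 2.55e-08). The other helicase genes moved less: Mcm2 fell by 2.01 ± 0.32 and Mcm5 fell by 1.07 ± 0.27. Pold1, the catalytic subunit of polymerase delta, fell by 2.18 ± 0.26, Tyms, which makes thymidylate, fell by 2.13 ± 0.29 and Cdc45, which activates the helicase, fell by 2.07 ± 0.26. Mcm10 lay at 0.40 and 0.17, then -0.25 and -0.08, and was not called (adjusted p = 0.302). TTCCCGC, a motif of the E2F factors that drive S phase, was searched on both strands. It was present in 7 of 25 promoters of the list, of which 5 fell, against 7.41% of tested promoters. Among all named genes tested, its share was 7.45% of those called lower and 6.21% of those called higher. The synaptonemal complex list, where 5 of 12 genes rose, held it in 4 of 12 promoters, and the mitotic list in 0 of 22. The Mcm7 promoter holds it at -165 (chr5:138171884-138172063, minus strand, motif in capitals, shown as its reverse complement).
Mcm7: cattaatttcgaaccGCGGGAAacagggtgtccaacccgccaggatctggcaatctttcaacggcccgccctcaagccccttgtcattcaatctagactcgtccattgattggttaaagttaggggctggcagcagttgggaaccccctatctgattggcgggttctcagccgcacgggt

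Mitotic genes fell in 17 of 29 tested cases and 1 rose, with a median of -1.08. With the values as deposited 8 fell, and 13 did under normexp, with a common floor or without the filter on dim probes. Ccnb1, the main mitotic cyclin, went from -2.01 and -1.35 to -4.67 and -5.35, a change of -3.33 ± 0.31 (adjusted p = 7.14e-07). The centromere histone Cenpa fell by 3.16 ± 0.32, topoisomerase Top2a fell by 2.84 ± 0.37 and the phosphatase gene Cdc25c fell by 2.83 ± 0.33. The Cdc25c call was lost with a common floor. Cdk1, the partner of cyclin B, lay at -1.52 and -0.97, then -1.36 and -0.89 (adjusted p = 0.833), and Ccnb2, a second cyclin B, had a change of -0.28 ± 0.37 (adjusted p = 0.558). Birc5, the survivin subunit of the chromosomal passenger complex, was the one that rose, by 1.08 ± 0.22 (adjusted p = 0.000872). In the list of cyclins and inhibitors, 4 of 11 fell and 2 rose. Ccnd1, a G1 cyclin, lay at -0.40 and -0.91 and then at -4.20 and -4.16 (-3.53 ± 0.35, adjusted p = 1.21e-06). The kinase inhibitor Cdkn1a fell by 2.06 ± 0.43 (adjusted p = 0.00111). Ccnb3, an X-linked cyclin of meiosis, rose from -5.76 and -6.92 to -1.33 and -0.16, by 5.60 ± 1.02 (adjusted p = 0.000391).

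Of 16 tested checkpoint and cell death genes, 4 fell and 2 rose, beside 20.3% and 25.8% of all tested genes. The list's median was -0.07. Without E17.5 array 1, 1 fell and 3 rose, and without E13.5 array 2, 2 fell and 2 rose. Without E17.5 array 2 or E13.5 array 1, 1 rose. With the values as deposited 0 fell and 1 rose by limma (4 of 16 passed an unadjusted p under 0.05), and under normexp or a common floor 1 fell and 1 rose. Atm, the kinase that answers double-strand breaks, fell by 1.18 ± 0.23 (-1.54 and -1.31, then -3.08 and -2.13; adjusted p = 0.000643). Trp63, given above, and Bcl2, a survival factor, rose, the latter by 2.00 ± 0.53, not without E17.5 array 2 or E13.5 array 1 (1.64 to 2.35). The Bcl2 call also ended under normexp, the deposited table, a common floor and a fit to the 12 PGC arrays. Bax, the killer protein known from fetal oocyte loss, lay at -0.10 and -0.29, then 0.11 and -0.44 (adjusted p = 0.931).

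Some genes named for sperm rose in these ovarian cells. Of 28 listed, 9 were tested; 6 rose and 1 fell, with a median of 1.54. Under quantile normalization 4 rose, 3 under normexp or with the values as deposited, and 2 with a common floor. The testis lactate dehydrogenase Ldhc lay at -3.64 and -3.55 and then at -1.92 and -2.20, a rise of 1.54 ± 0.29 (adjusted p = 0.000538). Akap3, of the sperm tail sheath, was at least 10.6-fold higher (adjusted p = 0.00297), with the call lost without E17.5 array 2 (3.71 to 5.44 log2 units over the 4 omissions). A common floor also ended the Akap3 call. Zpbp, a sperm head protein that binds the egg coat, was at least 4.30-fold higher (adjusted p = 0.00375), not under normexp, a common floor or a fit to the 12 PGC arrays. Clgn, a chaperone of sperm fertility, fell by 1.94 ± 0.26 (adjusted p = 2.34e-05), a call lost under quantile normalization, normexp and a common floor.

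X-linked and autosomal genes had similar medians. Among genes measured above background in each of the 4 arrays, the median change of 203 X-linked genes was -0.03 in pair 1 and 0.21 in pair 2, beside 0.03 and 0.19 for 6098 autosomal genes. Xist, whose RNA silences an X chromosome, lay at -6.57 and -6.44 at E13.5, where 1 of 2 arrays was well above background, and at -4.81 and -3.03 at E17.5. It rose by 2.58 ± 0.82 (adjusted p = 0.0175), and the call was lost without E17.5 array 2 or either E13.5 array (1.82 to 3.35). The Xist call was also lost under normexp, the deposited table and a common floor, and without the filter on dim probes.

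Outside the lists, the genes with the widest rises were named by size. Prdm16, a chromatin factor, lay at -8.49 and -7.51, 1 of 2 arrays well above background, and then at -0.92 and -0.58, a rise of 7.25 ± 0.87 (adjusted p = 8.89e-06). Grhl2, an epithelial transcription factor, rose by 5.15 ± 0.62. Morn5 rose by 6.68 ± 0.90. Aldh1l2, a mitochondrial folate enzyme, rose by 5.45 ± 0.37 (adjusted p = 3.22e-08) and Cd55, which shields cells from complement, by 5.98 ± 0.71. Not measured at E13.5 were Dcaf8l (at least 58.8-fold higher), Reg2 (at least 56.2-fold), Klhl1 (at least 39.5-fold) and Olah, a thioesterase of fatty acid synthesis (at least 37.1-fold).

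Among the widest falls outside the lists, Phlda2, an imprinted growth regulator, went from -0.24 and -0.52 to -8.18 and -9.36, at least 66.7-fold lower (adjusted p = 9.46e-09). Mogat2, an enzyme of triglyceride synthesis, was at least 64.2-fold lower, Sct, the hormone secretin, at least 62.6-fold and Wfdc2 at least 36.5-fold. The other 5 were all measured on at least 1 E17.5 array. Tubb5, a tubulin, fell by 5.13 ± 0.41 and Tuba3b, an alpha tubulin, fell by 4.86 ± 0.70. Kifc2, a kinesin, fell by 5.11 ± 0.41, Syne4, which joins nuclei to kinesin, fell by 5.47 ± 0.47 and Emb, a surface glycoprotein, fell by 4.95 ± 0.19.

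Of the markers of other cells, those of red cells rose with age. In the list for blood and endothelium, 3 of 4 tested genes rose, and its summed level went from -1.02 and -4.06 at E13.5 to 4.07 and 1.57 at E17.5. Hba-a1, an alpha globin of red cells, lay at -1.28 and -6.23 and then at 4.02 and 1.45, a rise of 6.49 ± 1.14 (adjusted p = 0.000287). Alas2, which starts heme synthesis in red cells, was at least 30.6-fold higher and Klf1, the erythroid factor, at least 3.07-fold, the latter call lost under quantile normalization, normexp, a common floor and the deposited table. Of the 12 genes of that list on the array, 2 and 4 were well above background on the E13.5 arrays and 4 and 7 on the E17.5 arrays. The endothelial gene Cdh5 and the leukocyte gene Ptprc were not well above background on any of the 4 arrays. Of the stroma list 1 of 7 rose, Nr2f2, by 3.07 ± 0.78 (adjusted p = 0.00478), not without E17.5 array 2 (2.39 to 3.74). Its call was also lost under normexp and a common floor. The list's median was 2.28, its summed level was -1.60 and -1.85, then -0.79 and 0.45, and its collagen Col3a1 lay at -6.05 and -5.76, then -3.81 and -1.58 (adjusted p = 0.114). A fit to the 4 ovarian arrays alone called 5 of the 7 stroma genes higher, and one to the 12 PGC arrays 4.

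For supporting cells, 0 of 7 tested genes were called by limma (1 at an unadjusted p under 0.05), and up to 3 rose with one array left out. Their summed level was -1.56 and -1.59 at E13.5 and -1.49 and -0.62 at E17.5. Of the 16 listed genes on the array, 7 and 9 were well above background on the E13.5 arrays and 6 and 9 on the E17.5 arrays. The defining gene Foxl2 was not well above background on any of the 4 arrays. Kitl, the ligand of Kit, lay at -5.39 and -4.86, then -4.44 and -2.81 (adjusted p = 0.0859). The Sertoli and Leydig list rested on Clu, which rose by 2.24 ± 0.67 (adjusted p = 0.0124), not without E17.5 array 2 or E13.5 array 1 (1.45 to 3.03). That call was also lost under normexp, the deposited table and a common floor, and without the filter on dim probes. The summed level of the germ cell list was 4.46 and 4.41, then 4.41 and 4.25. Of its 8 genes 3 rose (Sycp3, Kit and Mael) and 1, Pou5f1, fell. The sum therefore mixes changes in both directions and does not measure the share of germ cells. The part of these other cells in the results above was not tested.

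**Figure D3:**
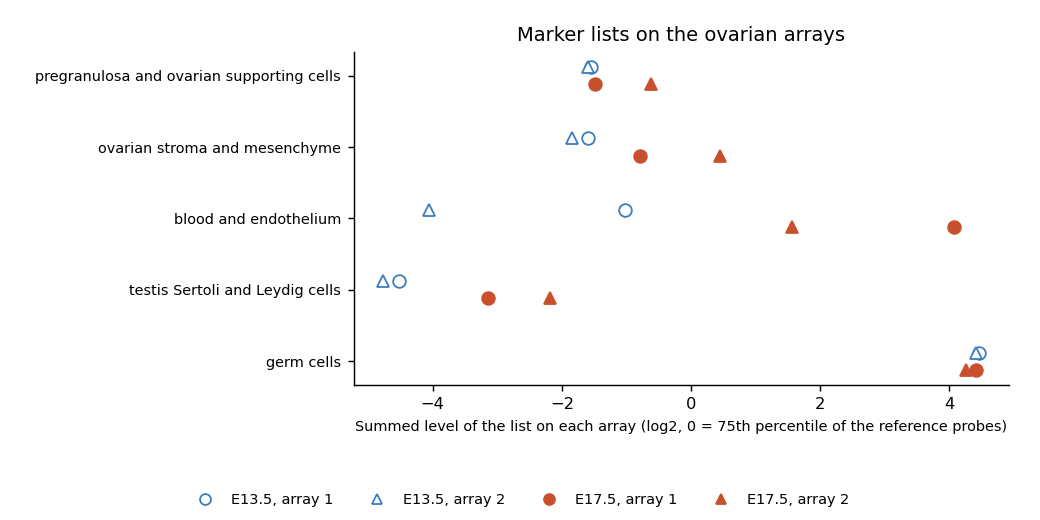
Summed level of each marker list on each ovarian array (log2, 0 is the 75th percentile of the reference probes), with open blue symbols for E13.5, filled red for E17.5, circles for array 1 and triangles for array 2. The germ cell list stays within 4.25 to 4.46, while the blood and endothelium list is higher on both E17.5 arrays (4.07 and 1.57) than on both E13.5 arrays (-1.02 and -4.06). In the germ cell list 3 of 8 genes rose and 1 fell, so its sum mixes changes in both directions.

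Which of these changes were unlike those of testicular germ cells over the same days was asked by the difference of the 2 changes in the same fit. Of 16850 genes tested, the ovarian change was called above the testicular one for 2646 (15.7%) and below it for 3731 (22.1%). That split turned over with a percentile over all probes (3556 and 2928), without E13.5 testicular array 1 (3824 and 3523) and among genes above background on all 8 arrays (2245 and 1961), and the deposited table gave 260 and 1768. The median difference over all genes was -0.27, beside 0.05 with the percentile over all probes and -0.59 under the deposited table. Of the genes of meiotic entry, 8 of 12 lay below and 1 above, with a median of -3.48. Testicular Stra8 lay at -4.72 and -5.69, then -3.20 and -3.23, so its difference was -9.76 ± 1.44 (adjusted p = 9.91e-05). Rec8 rose in the testis arrays (-4.60 and -4.25, then -2.15 and -2.50) as it fell in the ovarian ones, a difference of -8.77 ± 0.63 (adjusted p = 1.64e-07).

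Of 6 oocyte transcription factors, 3 lay above the testicular change and 0 below. Nobox lay at -4.94 and -5.28 on the E17.5 testicular arrays (difference 5.73 ± 1.15, adjusted p = 0.00121). Trp63 had a difference of 6.99 ± 0.93 (adjusted p = 4.2e-05). The difference for Figla did not pass the test (3.23 ± 1.46, adjusted p = 0.093). In the egg coat and maternal-effect list, 6 of 16 lay above and 1 below. Zp2 reached -2.96 and -2.50 on the testicular arrays at E17.5 (difference 1.84 ± 1.29, adjusted p = 0.278), and Zp3 reached -2.16 and -2.32 there, with a difference of -3.67 ± 0.93 (adjusted p = 0.00602). Where a gene was not well above background in a group, these differences rest partly on dim values and are not bounds.

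Of 12 genes of the synaptonemal complex and axis, 3 stood above the testicular change and 3 below. Sycp1 had a difference of 3.31 ± 0.81 (adjusted p = 0.00487) and Sycp3 of 1.66 ± 0.58 (adjusted p = 0.0361). In other lists, the crossover gene Tex11 had one of 2.44 ± 0.55 and the receptor gene Kit of 2.71 ± 0.40 (adjusted p = 0.000103). Dppa3, flat in the ovary, went from 2.18 and 2.62 to -2.68 and -3.01 in the testis, a difference of 5.21 ± 0.47 (adjusted p = 1.18e-06). Spo11 (0.56 ± 0.56, adjusted p = 0.452), Piwil1 (0.16 ± 0.69, adjusted p = 0.872) and Sox2 (-2.08 ± 1.67, adjusted p = 0.349) were not called, which does not show that these changes were alike. Below the testicular change were Pou5f1 (-3.83 ± 0.78, adjusted p = 0.00133), Tfap2c (-5.50 ± 0.67), Rhox6 (-3.97 ± 0.35), Mcm7 (-2.44 ± 0.34) and Dnmt3a (-2.12 ± 0.49). Dnmt3l climbed from -4.56 and -4.33 to 3.43 and 3.46 in the testis and gave a difference of -7.61 ± 1.11 (adjusted p = 9.32e-05).

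**Figure D4:**
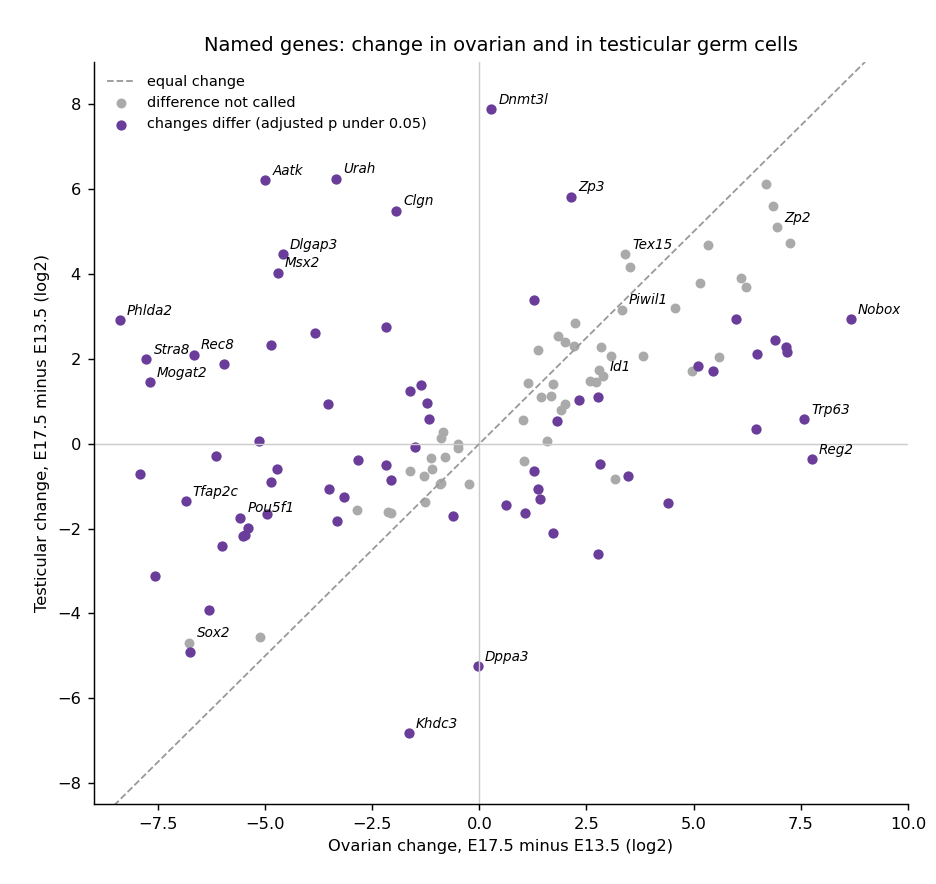
Change from E13.5 to E17.5 (log2) of the named genes in ovarian germ cells (horizontal) and in testicular germ cells (vertical), as differences of group means of 2 arrays, with a dashed line for equal change and purple for genes whose changes differ at an adjusted p under 0.05. Stra8 and Rec8 lie at -7.77 and -6.66 in the ovary, beside 1.99 and 2.10 in the testis, and Nobox, Trp63 and Reg2 lie far to the right of the line.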

How the data were processed

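Expression was measured in 28 samples on one-colour Agilent mouse arrays. Spots were quantified by the authors with Agilent Feature Extraction 10.5.1.1, per the file headers, and its processed signal, a background-adjusted intensity, was used as deposited. The well-above-background flag of the deposited files was used as given. The deposited table of log2 values equals log2 of that signal minus each array's median, to within 0.00252 (column medians -7.34e-05 to 0.00251), and served as an alternative.

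Control spots (1417) and 514 probes flagged non-uniform were left out, log2 signals were scaled as the report states, and the brightest probe stood for a gene. Of 43803 probes, 16760 matched 13143 symbols in a RefSeq table (GRCm38.p6), and 81 of 1078 called genes with several measured probes had one of opposite sign. Genes entered a test if well above background on both arrays of 1 compared group. The model (limma 3.58.1 in R 4.3.3, lmFit and eBayes, Benjamini-Hochberg adjustment) held 14 group means and 1 replicate block for the PGC arrays, with 13 residual degrees of freedom. The block, the scan day in the file headers, pairs the samples: deviations of same-numbered arrays correlated at 0.419 between the 2 ovarian ages and at -0.13 to 0.753 over 15 pairs of PGC groups. Each ± after a log2 change is the fit's standard error (SE), and adjusted p-values are limma's. On simulated data, 0, 14, 40 and 50 of 50 genes were recovered at true log2 changes of 0.5, 1.0, 2.0 and 4.0. These data had the ovarian design, and 7 false calls fell among 14138 unchanged genes. On the measured arrays a far larger share was called (6617 of 14338 genes), so the adjustment was less strict there. How often changes of these sizes were recovered or falsely called on the measured arrays was not tested. The background correction by normexp (offset 50) used median spot signals in place of the mean signals that were planned.

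The members, the 16 gene lists, the 5 marker lists and the rule for named genes (key genes, the 4 widest called changes of each list in each direction, the 10 widest outside the lists and the 6 widest sex differences) were chosen with earlier results of these data known. Genes that were called but did not fall under that rule are named as examples of their list, chosen after their values were seen. A few genes under the rule are not reported here. Tables were made with pandas 2.3.3 and numpy 2.4.6.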

Additional observations from a re-analysis of the deposited data

Results flagged for a closer look

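The changes of ovarian and testicular germ cells from E13.5 to E17.5 were compared by the difference of both changes in the same limma fit, and 6377 genes differed. Among the key genes, the ovarian change lay below the testicular one for Stra8 (-9.76 log2 units), Rec8 (-8.77), Dnmt3l (-7.61), Tfap2c (-5.50), Rhox6 (-3.97), Pou5f1 (-3.83), Zp3 (-3.67), Prdm1 (-3.41), Dmc1 (-2.73), Mcm7 (-2.44), Nanog (-2.38), Dnmt3a (-2.12) and Ccnb1 (-1.51). It lay above for Nobox (5.73), Dppa3 (5.21), Lhx8 (4.47), Sycp1 (3.31), Kit (2.71), Tex11 (2.44) and Sycp3 (1.66).

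Wide positive differences outside the key genes were those of Reg2 (8.12), Trp63 (6.99), Gpr143 (6.11), Ccdc96 (5.81) and Ablim1 (5.39). Wide negative ones were those of Phlda2 (-11.30), Aatk (-11.22), Urah (-9.59), Mogat2 (-9.14) and Dlgap3 (-9.05). Differences of genes not well above background in a group, Phlda2 and Mogat2 among them, rest partly on dim values, so neither their size nor their order is settled. Aatk lay at -2.45 and -2.14 and then at -7.30 and -7.29 in the ovary, beside -8.14 and -7.14 and then -1.73 and -1.12 in the testis. Phlda2 went from -0.24 and -0.52 to -8.18 and -9.36 in the ovary and from -7.59 and -5.69 to -3.82 and -3.63 in the testis.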

How the results depend on the processing

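The alternatives changed one choice each, except that normexp also used median spot signals and leaving out an array changed which genes were tested (in the ovarian comparison 14468 to 17390 against 14338). Against 6617 ovarian calls (3700 higher, 2917 lower), normexp gave 3038 (1761 and 1277), the values as deposited gave 1824 (632 and 1192), no filter on dim probes 4340 (2387 higher), and a common floor 1917 lower. Leaving out one ovarian array gave 4483 to 5586 calls, 2295 to 3608 higher and 1978 to 2501 lower. Without the replicate block, the fit that does not pair the arrays by scan day called 5763 genes. Of these, 5760 were shared with the paired fit in the same direction. A fit with slide as a fixed block called 6294 genes, a fit to the 12 PGC arrays alone 5005 and a fit to the 4 ovarian arrays alone 5804. For the 6377 differences between ovary and testis, normexp gave 2062 (935 and 1127), the values as deposited gave 2028 (260 and 1768), no filter 4181 (1650 higher), only genes above background on all compared arrays 4206 (1961 lower) and the 12 PGC arrays 1711 higher. Leaving out one array gave 4919 to 7347, with 1970 to 3824 higher and 2690 to 3870 lower. The cause was not tested.

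Of 117 named genes, 113 were called and 60 kept the call under each of the 17 alternatives that could test them, and 112 of those called never turned sign. With the values as deposited 42 named genes lost the call, under normexp 24, with a common floor 21 and with slide as a fixed block 11. The limits given with single genes above do not name each alternative that ended their call. Khdc3 turned to 0.132 under normexp. Dppa3, not called, turned to 0.025 under normexp and 0.02 with the mean over probes, and ranged from -0.696 to 0.623 with one array left out. Signals near background and 2 arrays a group limit all of these values.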

Other observations

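The levels of some of these genes on the female arrays at E10.5 and on the oogonia arrays are given here with no comparison, because the oogonia differ from the PGC in strain label and scan day and no contrast with E10.5 was planned. Id1 lay at -1.14 and -1.83 at E10.5 and at 1.49 and 1.71 in oogonia. Stra8 was not well above background at E10.5 (-6.88 and -9.5) and lay at -4.57 and -6.58 in oogonia. Dmc1 lay at -6.45 and -6.21 in oogonia and Rec8 at -8.06 and -8.00, while Sycp3 lay at 2.54 and 2.31 and Smc1b at 3.27 and 3.54. Zp3 lay at -1.64 and -1.64 in oogonia and Zp2 at 0.75 and 0.44. Figla lay at 0.93 and 1.06 there, Kit at 1.38 and 1.64 and Dppa3 at 3.32 and 3.22. Pou5f1 lay at 4.50 and 4.03 at E10.5 and at -0.40 and -1.34 in oogonia.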
